A study of Mus musculus with 15 samples.

Results

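TRBV31 is the V segment of the mouse T-cell receptor beta (TCRβ) locus that lies on the far side of the J and constant segments. Its clonotypes were the entries naming TRBV31 in 15 deposited TCRβ tables, and there were 1072 of them among 59364 TRBV clonotypes. A clonotype is a distinct nucleotide sequence of the third complementarity-determining region (CDR3) with its V family and J cluster. The CDR3 is the loop of the receptor where the V, D and J segments meet.

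The libraries came from non-obese diabetic (NOD) mice aged 125 days, a strain prone to autoimmune diabetes. Wild-type (WT) NOD mice were set beside Ifngr-1-mutant NOD mice, whose mutation lies in a chain of the interferon-γ receptor and whose libraries bear the code GKO, which the labels do not spell out. For each mouse, cells of the spleen and of lymph nodes that do not drain the pancreas were combined and stained with an H-2Kd tetramer carrying the IGRP206–214 peptide, from a protein of the pancreatic beta cell. Magnetically captured cells make up the tetramer-positive (TET) fraction, and CD8+CD44+ cells of the flow-through the CD8 fraction. WT mice gave 3 TET and 4 CD8 libraries, and mutant mice gave 4 of each. A TET and a CD8 library that bear the same number within a strain are taken as 1 mouse.

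Most V segments of this locus lie upstream of the D and J segments and join them by deletion of the DNA between. TRBV31 lies in the opposite orientation and joins by inversion, so that no chromosomal circle is cut out. TRBD1 precedes the TRBJ1 cluster and TRBD2 lies between the TRBJ1 and TRBJ2 clusters, so that TRBD1 can join either cluster whereas TRBD2 ordinarily joins TRBJ2. In the RefSeq gene order of assembly GRCm38.p6, Trbv31 on chromosome 6 follows Trbc2, the second constant segment. It is the only segment of V type after the J segments, against 21 before them. The next protein-coding gene is Ephb6.

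The V name could be checked in the sequences themselves. The germline opening of the loop was read from clonotypes of the longer of the TRBV31 reference forms that the tables align over at least 13 nucleotides without a V mismatch:

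TRBV31 opening: tgtgcctggagtc

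The amino acid sequence opened with cysteine, alanine and tryptophan (CAW) in 1017 of 1072 TRBV31 clonotypes (94.9%) and with a serine after them (CAWS) in 760 (70.9%). Among the 58292 clonotypes of other families, 1 opened with CAW (a TRBV29 clonotype) and none with CAWS. No nucleotide CDR3 of TRBV31 was listed under another family. The tables aligned 614 TRBV31 clonotypes to a V reference of 303 nucleotides and 458 to another of 300 nucleotides. The 13 letters stood at the start of 335 of the former and 232 of the latter, although none of the latter was aligned over them without a mismatch. Germline V letters can therefore stand outside the aligned V part where the shorter form was used.

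The following CDR3 sequences carry the results on clone size and sharing. They are the TRBV31 receptors held by 3 tetramer libraries, the largest TRBV31 clonotype of each tetramer library and the largest in any CD8 library. Also printed are a sequence held by tetramer libraries of both strains, the receptor in most CD8 libraries and the receptor in most libraries of all. Other receptors that both strains held in CD8 libraries are not printed. A receptor here is an amino acid CDR3 with its J cluster, so 2 nucleotide sequences can encode 1 receptor. Capitals mark the letters that the tables align to neither V nor J, where the D segment and added nucleotides lie. The aligned V stretch can also run past the germline end.

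TET-shared A, TRBJ2, mutant TET 1, 2 and 3: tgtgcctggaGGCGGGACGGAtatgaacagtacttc
TET-shared B, TRBJ1, mutant TET 1 and 3: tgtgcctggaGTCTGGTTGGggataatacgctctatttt
TET-shared B, TRBJ1, mutant TET 2: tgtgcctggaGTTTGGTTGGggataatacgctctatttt
WT TET 1 largest, TRBJ2: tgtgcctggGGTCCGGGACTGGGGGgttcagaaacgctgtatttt
WT TET 2 largest, TRBJ2: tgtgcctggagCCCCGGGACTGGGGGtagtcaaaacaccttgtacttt
WT TET 3 largest, TRBJ2: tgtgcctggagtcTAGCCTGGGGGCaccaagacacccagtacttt
mutant TET 1 largest, TRBJ1: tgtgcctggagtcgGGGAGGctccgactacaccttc
mutant TET 2 largest, TRBJ1: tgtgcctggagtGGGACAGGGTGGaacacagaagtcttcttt
mutant TET 3 largest, TRBJ2: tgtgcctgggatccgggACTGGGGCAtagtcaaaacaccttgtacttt
mutant TET 4 largest, TRBJ2: tgtgcctggaTAGGACTtgaacagtacttc
strain-shared, TRBJ2, WT TET 2 and mutant TET 3: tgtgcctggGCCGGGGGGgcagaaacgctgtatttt
WT CD8 1 largest, TRBJ2: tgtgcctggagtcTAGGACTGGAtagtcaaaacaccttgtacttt
CD8-shared, TRBJ2, WT CD8 2 and 3 and mutant CD8 2: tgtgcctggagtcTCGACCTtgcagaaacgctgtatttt
widest, TRBJ2, 4 libraries: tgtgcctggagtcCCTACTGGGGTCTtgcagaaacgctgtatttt

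The libraries differed in depth. TET libraries held 97 to 126 clonotypes and 2536 to 14958 counts in WT mice, and 393 to 2199 clonotypes and 17294 to 60164 counts in mutant mice. CD8 libraries held 2040 to 9827 clonotypes and 17116 to 32856 counts. The tables do not say whether a count is a read or a molecule, so every interval and limit given here covers counting error only. With bulk libraries, fewer cells of a receptor and less of its RNA per cell cannot be told apart.

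TRBV31 was a rare family among CD8+CD44+ cells and took a larger share of the clonotypes of tetramer-binding cells. Its share of clonotypes in the WT CD8 libraries was 1.62%, 1.84%, 1.70% and 1.24%. In the mutant CD8 libraries it was 1.55%, 1.37%, 1.47% and 1.28%. The CD8 values of both strains lay within the same narrow range.

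In the mutant TET libraries TRBV31 made up 6.22%, 5.09%, 5.33% and 3.82% of clonotypes, from 62, 112, 87 and 15 clonotypes. Each of these values, at the full depth of its library, was above every CD8 value. In the WT TET libraries the shares were 2.94%, 2.38% and 1.03%, and they rested on 3, 3 and 1 clonotypes. Their 95% exact binomial intervals were 0.611% to 8.36%, 0.494% to 6.80% and 0.0261% to 5.61%, so that 1 WT TET library alone could not be told from the CD8 libraries or from most mutant TET libraries. Group means were 5.12% ± 0.992 in mutant TET, 2.12% ± 0.982 in WT TET, 1.60% ± 0.256 in WT CD8 and 1.42% ± 0.119 in mutant CD8 (SD).

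The order of the libraries depended on depth. With every library thinned at random to 2536 counts, as means over draws, the mutant TET shares were 5.52%, 3.75%, 4.42% and 1.06%, and the WT TET shares 3.03%, 2.32% and 1.03%. The CD8 shares were then 0.933% to 1.46% in WT and 0.764% to 1.13% in mutant mice. Mutant TET 4 thus lay below 2 WT TET libraries and within the CD8 range, and the other 3 mutant TET libraries stayed above all others. The TET mean was 3.02% ± 1.68 (n = 7) and the CD8 mean 1.06% ± 0.218 (n = 8).

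**Figure D1:**
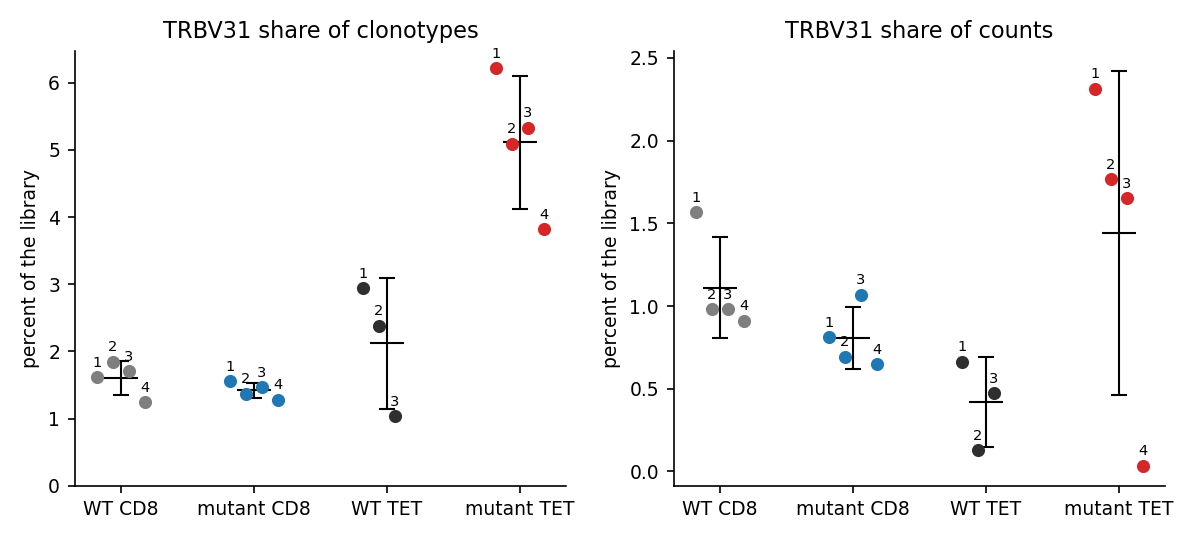
TRBV31 as a percent of the clonotypes (left) and of the counts (right) of each library, by group; points are libraries with their replicate number, the bar and whiskers are mean and SD. On the left the 4 mutant TET libraries lie at 3.82% to 6.22%, above all 8 CD8 libraries at 1.24% to 1.84%; on the right mutant TET 4 lies at 0.0332%, the lowest of all.

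Clonotypes per V family, each counted once, went into the quasi-likelihood test of edgeR, with p-values adjusted over the families tested. TET against CD8, with strain as a covariate, put TRBV31 3.46-fold higher, at 1.79 on the log2 scale (SE 0.15, edgeR adjusted p = 3.9e-13). In that comparison 13 of 15 families were called at an adjusted p under 0.05 (86.7%) and 6 were called higher (40%), so a call by itself did not set TRBV31 apart. Its fold change was the largest of the 15, next to that of TRBV20 at 1.78 (SE 0.15). TRBV1, the V segment at the other end of the locus, had 0.87 (SE 0.11), and TRBV13, the largest family, 0.48 (SE 0.064).

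Within mutant mice alone the TRBV31 log2 fold change was 1.91 (SE 0.12, edgeR adjusted p = 1.5e-11), with 14 of 17 families called (82.4%), 6 of them higher (35.3%). Within WT mice alone it was 0.45 (SE 0.57, edgeR adjusted p = 0.524), with 6 of 15 families called (40%), 1 of them higher (6.67%). The difference between the strains is a separate test. Its log2 value was 1.46 (SE 0.50, edgeR adjusted p = 0.0719) and it did not pass. No family passed that test (0 of 15, 0%), DESeq2 called 2, and 3 had an unadjusted edgeR p under 0.05. For TRBV31, 1 of 25 alternatives passed, which was without WT CD8 4 (1.61, edgeR adjusted p = 0.0203). The value was 0.77 with TMM scaling factors (edgeR adjusted p = 0.491) and 0.86 in DESeq2 (adjusted p = 0.355). It was 1.26 at equal depth (edgeR adjusted p = 0.593) and 1.06 without single-count clonotypes (edgeR adjusted p = 0.754).

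Mutant against WT within TET gave 1.29 (SE 0.53, edgeR adjusted p = 0.0780), which did not pass. In this comparison 1 of 8 families was called (12.5%), and it was TRBV13, at -0.38 (SE 0.12). At full depth the TRBV31 shares of the strains did not overlap in TET, and at 2536 counts they did. At full depth the exact permutation test on the difference of 3.00 points gave p = 0.0571 (adjusted p = 0.156), where 0.0286 is the smallest p that 3 against 4 libraries allow. The difference was 1.56 points at equal depth (exact p = 0.229, adjusted p = 0.347) and 1.47 points without single-count clonotypes (exact p = 0.286, adjusted p = 0.39). Mutant against WT within CD8 gave -0.16 (SE 0.13, edgeR adjusted p = 0.671). No family was called there by edgeR (0 of 17, 0%) or DESeq2, and none had an unadjusted p under 0.05.

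The exact permutation test of TET against CD8, with libraries reassigned within each strain, gave a difference of 2.11 points (p = 0.00571, adjusted p = 0.0582). It missed the threshold after adjustment over the 41 exact tests made on TRBV31. It passed in 3 of 21 alternatives, among them with TRBV13 left out of the library totals (5.0 points, exact adjusted p = 0.0335). With the mice kept as blocks the difference was 2.28 points (exact sign-flip p = 0.0469, adjusted p = 0.156). That version could not pass, since 0.0156, the smallest sign-flip p that 7 pairs allow, adjusts to 0.0582.

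TRBV1 and TRBV20 followed the TRBV31 share most closely across the 15 libraries, with Spearman's rho of 0.814 and 0.750. TRBV13 came next at 0.471. The libraries differ in fraction, strain and depth, so these values are a description. TRBV20 made up 1.74% ± 0.285 of clonotypes in CD8 (n = 8) and 4.70% ± 1.93 in TET (n = 7), and TRBV1 made up 6.12% ± 0.980 and 10.9% ± 3.30.

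By counts rather than clonotypes, TRBV31 was not higher in TET. Its share of counts in the WT CD8 libraries was 1.57%, 0.981%, 0.982% and 0.911%, and in the mutant CD8 libraries 0.813%, 0.694%, 1.07% and 0.648%. In the mutant TET libraries it was 2.31%, 1.77%, 1.65% and 0.0332%, and in the WT TET libraries 0.664%, 0.127% and 0.473%. The first 3 mutant TET libraries lay above every CD8 library and the fourth below, while the 3 WT TET libraries overlapped the lower end of the CD8 range or lay under it.

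The strain-weighted difference in count share, TET minus CD8, was -0.026 points (exact permutation p = 0.933). It was 0.21 points without mutant TET 4 and 3.78 points with TRBV13 left out of the totals (exact p = 0.0269, adjusted p = 0.0901). Counts per family gave a log2 fold change of -0.14 in edgeR (adjusted p = 0.849), against 1.79 for clonotypes. Between strains, the mutant minus WT difference in count share was 1.02 points in TET (exact p = 0.143) and -0.304 points in CD8 (exact p = 0.114).

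The gap between both shares lies in clone size. TRBV31 clonotypes had a lower mean count than the pooled clonotypes of all other families in all 15 libraries. TRBV31 was not the lowest single family. Averaged over libraries, it had the 5th lowest mean count of 15 families in CD8 and the 4th lowest of 9 in mutant TET. TRBV2, TRBV20 and TRBV19 lay below it in both. The mean count of a TRBV31 clonotype in the WT CD8 libraries was 8.12, 2.79, 2.13 and 2.07, against 8.39, 5.28, 3.73 and 2.83 for other TRBV clonotypes of the same libraries. In the mutant CD8 libraries it was 2.43, 2.19, 1.85 and 1.69, against 4.68, 4.35, 2.54 and 3.36. Only WT CD8 1 came close to equality.

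In the mutant TET libraries the TRBV31 mean was 6.45, 3.54, 4.17 and 1.33 counts, against 18.1, 10.6, 14 and 159 for other clonotypes. In the WT TET libraries it was 11, 6.33 and 12, against 49.8, 121 and 26.3. The gap was narrowest in WT TET 3 and widest in mutant TET 4.

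Expressed as log2 of the ratio, the mean was -0.70 in CD8 (lower in 8 of 8 libraries, exact sign-flip p = 0.00781, adjusted p = 0.0582) and -2.75 in TET (lower in 7 of 7, exact p = 0.0156, adjusted p = 0.0582). These are the smallest p-values that 8 and 7 libraries allow. With TRBV13 left out of the other clonotypes the values were -0.35 in CD8 (exact p = 0.0391, adjusted p = 0.133) and -0.74 in TET (exact p = 0.0938, adjusted p = 0.223). The difference between the fractions was -2.02, or 4.06-fold (exact permutation p = 0.000408, the smallest possible, adjusted p = 0.0167). It was the only exact test of the 41 to pass, and 12 had an unadjusted p under 0.05. The call was lost without any 1 of the 8 CD8 libraries (exact adjusted p = 0.0582 each time), at values of -2.08 to -1.94. Without a WT CD8 library, even the smallest p that the reassignments allow misses the threshold after adjustment. Those cases therefore cannot tell whether the result holds. Without any 1 TET library the difference passed, and without mutant TET 4 it was -1.36.

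That difference rested on the family in the comparison. With TRBV13 left out of the other clonotypes it was -0.35 (exact p = 0.548, adjusted p = 0.681). In mutant TET, TRBV13 clonotypes had a mean of 96.1 counts, averaged over libraries, where TRBV31 had 3.88 ± 2.11 and TRBV20 had 3.52. With the mice kept as blocks, the difference was -2.02 and the adjusted exact p was 0.0582. No sign-flip p that 7 pairs allow could pass there.

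Single-count clonotypes were more frequent in TRBV31 than among the pooled clonotypes of other families in every CD8 library. The WT CD8 libraries had 21.2%, 33.7%, 49.6% and 50.5% of TRBV31 clonotypes at a single count, against 15.3%, 18.6%, 29.1% and 36.3% of the rest. The mutant CD8 libraries had 31.4%, 41.9%, 56.6% and 61.9%, against 18.9%, 26.9%, 42.1% and 31.7%. The mean excess was 16 points (8 of 8 libraries, exact sign-flip p = 0.00781, adjusted p = 0.0582).

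In the mutant TET libraries the values were 33.9%, 37.5%, 41.4% and 80%, against 24.3%, 28.4%, 38.3% and 46.8%. None of the 7 WT TET clonotypes of TRBV31 had a single count, against 11.1% to 30.1% of the rest. The excess over other families thus had opposite signs in the strains, in every library of each. Its difference was 34.4 points (exact p = 0.0286, adjusted p = 0.0976), resting on few WT clonotypes.

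A high share of single counts was not particular to TRBV31. Among the 15 families compared over the CD8 libraries, TRBV2, TRBV31 and TRBV20 were the rarest, at 1.29%, 1.51% and 1.74% of clonotypes. They also had the highest shares of single-count clonotypes, at 55.1% ± 13.4, 43.4% ± 13.8 and 52.7% ± 10.2. TRBV13, the commonest at 35.2% of clonotypes, had the lowest at 19.0% ± 6.58.

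**Figure D2:**
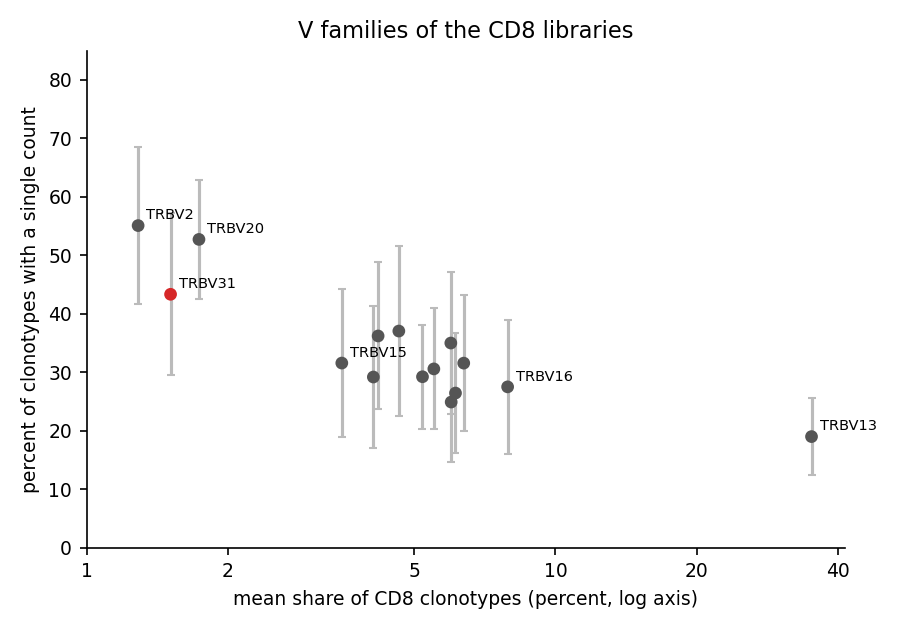
Mean share of CD8 clonotypes (log axis) against the percent of clonotypes with a single count for 15 V families over 8 CD8 libraries; whiskers are the SD over libraries, TRBV31 is red and 6 families are named. TRBV31 sits with TRBV2 and TRBV20 at the upper left, apart from the 12 commoner families.

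TRBV31 was nearly missing among the large clones of mutant TET, taken as those with over 20 counts. That limit was set after the data were seen. It lies just above the largest TRBV31 clonotype there, at 19 counts. In the mutant TET libraries none of the 585 clonotypes with over 20 counts used TRBV31, which allows a share of up to 0.513%, whereas TRBV31 made up 6.80% ± 1.17 of the single-count clonotypes there (n = 4). TRBV13 supplied 549 of those 585 large clonotypes and TRBV4 supplied 19. No other family supplied more than 5. TRBV1 supplied 5, TRBV19 2 and TRBV20 1, although they made up 11.4%, 6.84% and 5.59% of mutant TET clonotypes. Like TRBV31, TRBV2 and TRBV5 were not among the suppliers. The lack of large clones was thus not particular to TRBV31. The mutant CD8 libraries had no TRBV31 among 164 such clonotypes, which allows up to 1.83%. That limit lies above the 1.42% of all clonotypes that TRBV31 made up there, so no deficit among large clones was detectable in mutant CD8.

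The WT TET libraries had 1 TRBV31 clonotype among 157 with over 20 counts and the WT CD8 libraries had 1 among 274, both shown above as the largest of WT TET 1 and WT CD8 1. In WT CD8 the mean TRBV31 share was 2.53% ± 0.692 of single-count clonotypes, 1.55% ± 0.486 of those with 2 to 5 counts and 0.729% ± 0.695 of those with 6 to 20 counts (n = 4). In mutant CD8 it was 2.28% ± 0.283, 1.41% ± 0.503 and 0.261% ± 0.269. No test was run on this order. In mutant TET the class of 6 to 20 counts still held 4.88% ± 4.06, with no TRBV31 in mutant TET 4. That is close to the 5.12% ± 0.992 of all clonotypes that TRBV31 made up there.

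**Figure D3:**
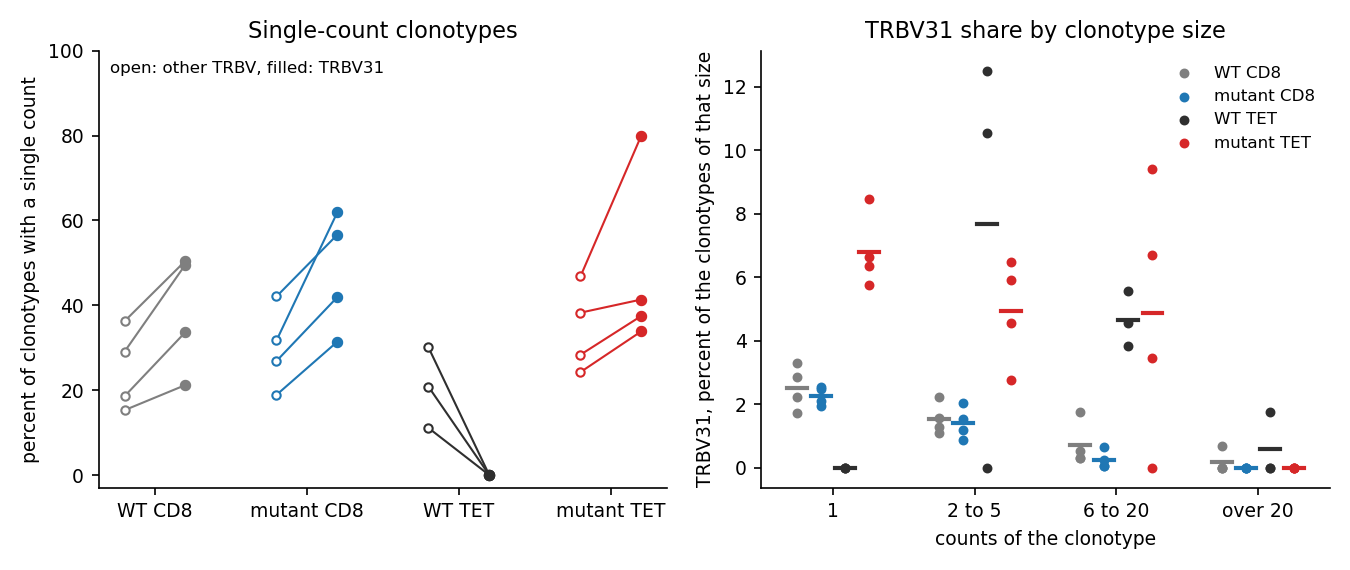
Left, the percent of clonotypes with a single count in each library, other TRBV (open) joined to TRBV31 (filled); right, TRBV31 as a percent of the clonotypes of each size, points being libraries and bars group means. The CD8 and mutant TET lines rise and the WT TET lines drop to 0, and over 20 counts all 8 mutant libraries are at 0.

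The largest TRBV31 clones were few enough to be described singly. The largest had 90 counts in WT CD8 1, where it was the second most abundant of its 2040 clonotypes. It made up 33.6% of the TRBV31 counts there, and that library had the highest TRBV31 count share in CD8. The same amino acid receptor had 3 counts in mutant CD8 2. In the other 7 CD8 libraries the largest TRBV31 clonotype had 6 to 13 counts and ranked between 45 and 1031.

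In TET the largest TRBV31 clonotypes had 24, 11 and 12 counts in the WT libraries and 19, 12, 18 and 4 in the mutant libraries. The largest clonotype of any other family had 1094, 2261 and 124 counts in the WT libraries and 1381, 2416, 2376 and 7893 in the mutant ones. By rank, the largest TRBV31 clonotype stood at 55 of 102, 63 of 126 and 63 of 97 clonotypes in the WT TET libraries. In the mutant TET libraries it stood at 209 of 997, 386 of 2199, 213 of 1631 and 107 of 393.

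The 7 WT TET clonotypes could all be listed. WT TET 1 held its largest at 24 counts, the next at 6 and the smallest at 3, and the smallest was the only one of the 7 that did not open with CAW. WT TET 2 held 11 counts of its largest and 4 counts of each of the other two. WT TET 3 held 12 counts of its single clonotype. Of the 7, 4 carried a TRBD2 name with TRBJ2, and one of those, the strain-shared sequence above, recurred with the same nucleotides in mutant TET 3.

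At the joint, TRBV31 clonotypes of the CD8 libraries carried a TRBD1 name less often than other families. TRBD1 was named in 42.4%, 26.5%, 37.8% and 30.8% of TRBV31 clonotypes in the WT CD8 libraries and in 30%, 33.3%, 28.7% and 27.0% in the mutant CD8 libraries. The pooled clonotypes of other families lay between 40.2% and 43.3% in these libraries. TRBV31 was below them in 7 of 8 libraries, WT CD8 1 with 33 TRBV31 clonotypes being the exception. The mean difference was -9.56 points (exact sign-flip p = 0.0156, adjusted p = 0.0582).

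No D was named in 31.7% ± 3.69 of TRBV31 clonotypes and 25.3% ± 0.687 of others, a difference of 6.40 points (higher in 7 of 8, exact p = 0.0156, adjusted p = 0.0582). TRBD2 was named in 36.2% ± 6.55 against 33.1% ± 0.961 (higher in 6 of 8, exact p = 0.195). Among the 15 families TRBV31 had the lowest mean TRBD1 share and the highest mean share without a D name. Its TRBD1 share of 32.1% ± 5.55 was followed by TRBV5 at 34.6% ± 2.43. Without a D name, TRBV1 came next at 30.7% ± 3.47. Both gaps were smaller than the SD of TRBV31.

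The D names were also read within each J cluster. Among TRBJ2 clonotypes of the CD8 libraries, TRBD1 was named in 23.9% ± 6.14 for TRBV31 and 34.2% ± 0.808 for others, lower in 8 of 8 libraries. TRBD2 was named in 50.7% ± 9.36 against 43.7% ± 0.495. Among TRBJ1 clonotypes, 45.1% ± 7.16 had no D name against 33.3% ± 1.70, higher in 8 of 8. A TRBD2 name with TRBJ1 goes against the usual order of the locus, and it stood on 6.86% ± 4.45 of TRBV31 clonotypes with TRBJ1 and 6.07% ± 0.432 of others in CD8. In mutant TET it stood on 15.7% ± 11.8 and 6.04% ± 1.39, higher in 4 of 4 libraries with a TRBV31 range of 9.09% to 33.3%. The highest value came from mutant TET 4, where only 40% of 15 TRBV31 clonotypes used TRBJ1. The part of D naming in these differences was not tested.

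The D names were also read by V reference form, since its use differed between the groups. The longer form took 47.5% ± 13.3 of TRBV31 clonotypes in WT CD8, 55.0% ± 9.21 in mutant CD8 and 69.8% ± 15.9 in mutant TET (n = 4 each). In CD8, TRBD1 was named in 33.8% ± 7.62 of clonotypes of the longer form and 29.1% ± 8.93 of the shorter (n = 8). Both were under the 41.6% ± 0.881 of the pooled clonotypes of other families. No D was named in 32.5% ± 7.77 and 30.9% ± 6.42. Single counts made up 51.7% ± 9.67 of the longer form and 35.8% ± 16.1 of the shorter, and the part of the form in the clone size results was not tested.

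In the mutant TET libraries TRBD2 was named in 33.9%, 33.9%, 37.9% and 40% of TRBV31 clonotypes, against 23.7%, 21.2%, 22.7% and 24.1% of others. All 4 TRBV31 values were above all 4 others. The mean difference was 13.5 points, and p = 0.125 was the smallest the exact sign-flip test on 4 libraries allows. Among the 9 families compared in mutant TET, TRBV31 had the highest mean TRBD2 share and the lowest mean TRBD1 share. TRBV4 came next for TRBD2 at 33.3% ± 10.8, and TRBV19 next for TRBD1 at 42.2% ± 6.26. Within TRBJ2 the TRBD2 share was 52.0% ± 6.07 for TRBV31 and 35.2% ± 1.66 for others.

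Set against its own CD8 values, TRBV31 in mutant TET had a TRBD1 share of 38.2% ± 5.85 against 29.7% ± 2.69 (exact p = 0.0571, adjusted p = 0.156). Its TRBD2 share was 36.4% ± 3.04 against 41.1% ± 3.88 (exact p = 0.114). The other families differed in the same directions between these groups, with TRBD1 at 47.3% ± 2.26 against 41.4% ± 0.80 and TRBD2 at 22.9% ± 1.28 against 33.6% ± 1.02. Between strains in CD8, TRBD2 was named in 31.3% ± 4.62 of WT and 41.1% ± 3.88 of mutant TRBV31 clonotypes (exact p = 0.0571, adjusted p = 0.156). None of these passed.

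J cluster use did not separate TRBV31 from the other families by the test. TRBJ1 was used by 36.4%, 29.6%, 39.5% and 29.0% of TRBV31 clonotypes in WT CD8 and by 44.3%, 32.3%, 29.4% and 22.2% in mutant CD8, against 25.7% to 30.5% of others. The mean excess was 4.68 points (higher in 6 of 8, exact sign-flip p = 0.0859, adjusted p = 0.207). Against families other than TRBV13 it was 6.68 points (exact p = 0.0156, adjusted p = 0.0534). Among the 15 families TRBV31 ranked 4th in CD8, at 32.8% ± 6.95. TRBV20, TRBV29 and TRBV19 were above it at 33.5%, 33.3% and 33.0%, and TRBV1 followed at 32.3%.

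In mutant TET, TRBJ1 was used by 50%, 41.1%, 37.9% and 40% of TRBV31 clonotypes and by 43.7%, 45.0%, 43.7% and 35.2% of others, with no common direction. TRBV31 used TRBJ1 in 42.3% ± 5.33 in mutant TET and 32.0% ± 9.19 in mutant CD8 (10.2 points, exact permutation p = 0.114). The other families used it in 41.9% ± 4.53 and 27.2% ± 1.15 in the same groups.

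The tables name J clusters only, and J segments were grouped by the length of the aligned J reference, which leaves several segments together. TRBJ2-7 has a length of its own. It was used by 15.7% ± 3.81 of TRBV31 clonotypes and 22.2% ± 1.26 of others in CD8, lower in 8 of 8 libraries. The other classes each differed by less than 2 points. In mutant TET, TRBV31 used TRBJ1-4 in 14.5% ± 5.01 against 9.72% ± 0.817 of others, higher in 3 of 4. TRBJ2-2 was higher in 4 of 4, at 8.35% ± 3.47 against 5.32% ± 0.184, and TRBJ2-7 lower in 3 of 4, at 12.4% ± 5.96 against 17.0% ± 2.87. The class of TRBJ1-1 and TRBJ1-2 was lower in 4 of 4, at 13.6% ± 3.12 against 18.0% ± 2.73.

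The loop was slightly shorter in TRBV31. In the WT CD8 libraries the mean CDR3 had 13.3, 13.6, 13.8 and 13.5 residues, and in the mutant CD8 libraries 13.9, 13.5, 13.6 and 13.7. The pooled clonotypes of other families had 13.9 in all 8. The mean difference was -0.287 residues (shorter in 8 of 8, exact sign-flip p = 0.00781, adjusted p = 0.0582). TRBV31 ranked as the second shortest of the 15 families, after TRBV20 at 13.2 residues and close to TRBV29, TRBV15 and TRBV13 at 13.7.

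Short loops of 11 or fewer residues made up 9.74% ± 2.80 of TRBV31 clonotypes in CD8 and 5.78% ± 0.317 of others, more in 7 of 8 libraries. The range of TRBV31 was 8 to 19 residues. The V-aligned part, which the reference form can shorten, was 12.6 ± 0.403 nucleotides against 13.4 ± 0.092, shorter in 8 of 8. The stretch between V and J was 9.11 ± 0.337 against 9.60 ± 0.092 nucleotides, and the J-aligned part was 19.1 ± 0.370 against 18.7 ± 0.047.

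In mutant TET the CDR3 of TRBV31 had 13.7, 13.9, 13.7 and 14.2 residues, against 13.9, 13.9, 13.9 and 13.7 for others. The differences went both ways (mean 0.026 residues, exact sign-flip p = 0.875). The stretch between V and J was 10.2 ± 1.51 nucleotides against 8.88 ± 0.262 for others, longer in 3 of 4 libraries. The libraries had 8.76, 10.1, 9.72 and 12.3, the last from the 15 TRBV31 clonotypes of mutant TET 4. The mean was the longest of 9 families, but TRBV29 at 9.84 and TRBV4 at 9.74 lay within its SD. By V reference form the stretch was 9.94 ± 1.11 nucleotides for the longer and 12 ± 4.74 for the shorter (186 and 90 clonotypes), and in CD8 8.76 ± 0.855 and 9.55 ± 0.7. The part of the form in the junction lengths was not tested.

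**Figure D4:**
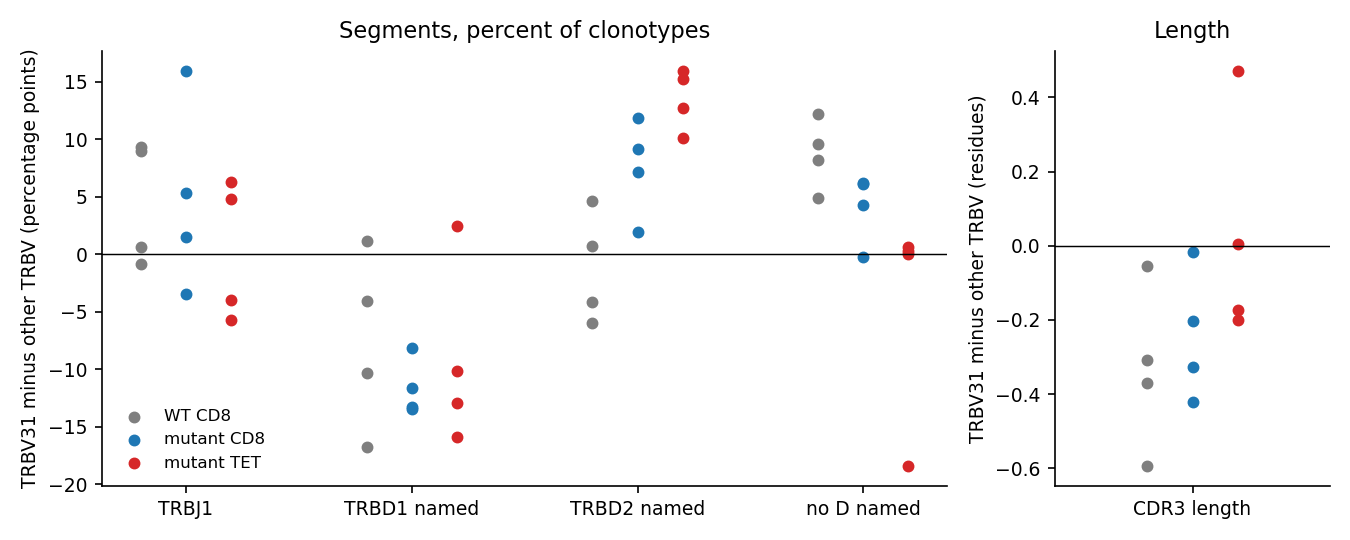
TRBV31 minus other TRBV clonotypes of the same library, for libraries with at least 10 TRBV31 clonotypes; left, the percent of clonotypes with TRBJ1, TRBD1, TRBD2 or no D name (points are libraries), right, mean CDR3 length in residues. TRBD1 lies below 0 in 7 of 8 CD8 libraries, TRBD2 above 0 in 4 of 4 mutant TET libraries, and length below 0 in 8 of 8 CD8 libraries.

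After the CAWS opening, the commonest next residue was leucine. It followed in 52.8% ± 3.90 of CAWS clonotypes in WT CD8, 54.9% ± 3.58 in mutant CD8 and 50.1% ± 9.95 in mutant TET (n = 4 each). Proline followed in 15.7% ± 7.32, 14.6% ± 4.72 and 19.1% ± 7.80. These openings differed by less than their spread.

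Receptor sharing of TRBV31 was near that of the other families. Counting amino acid CDR3 with J cluster, there were 991 receptors, of which 931 were in 1 library, 55 in 2, 4 in 3 and 1 in 4. TET libraries held 253 of them and CD8 libraries 758, with 20 in both. Receptors in 1 library were 93.9% for TRBV31 and 93.0% for the 51550 of other families, and those in both fractions 2.02% and 1.78%. Sharing depends on depth, which differed between groups.

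TET-shared receptor A had 17, 9 and 7 counts in mutant TET 1, 2 and 3, always with the same nucleotides. TET-shared receptor B had 1, 6 and 5 counts in the same libraries, encoded by 2 nucleotide sequences that differ in the capitals above. No receptor reached a 4th TET library, and 24 were in at least 2. In CD8, the CD8-shared receptor was in the most libraries, at 1 count in each of WT CD8 2, WT CD8 3 and mutant CD8 2. The receptor found in 4 libraries, listed as the widest, was singled out after its values were seen, and it had 2 counts in each of mutant CD8 1 and mutant CD8 3, 4 in mutant TET 2 and 5 in mutant TET 3.

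Mutant TET 2 and 3 had 13 TRBV31 nucleotide clonotypes in common, which is 11.6% of the first and 14.9% of the second. Mutant TET 1 and 2 had 7 in common (11.3% and 6.25%), and mutant TET 1 and 3 had 4 (6.45% and 4.60%). In mutant TET 1, 2 and 3, 16.1%, 17.0% and 20.7% of TRBV31 clonotypes recurred in another TET library, against 15.6%, 12.2% and 12.7% of other clonotypes. In mutant TET 4 it was 6.67% against 19.3%. In WT TET 1, 2 and 3 it was 0 of 3, 1 of 3 and 0 of 1 TRBV31 clonotypes, against 15.2%, 22.8% and 19.8% of others, so there was no common direction. By counts TRBV31 was lower in mutant TET 1, 2 and 3, at 20.8%, 19.4% and 25.1% against 39.0%, 41.8% and 48.3%. In the same mouse's CD8 library, 5 of 283 TRBV31 clonotypes of TET recurred (1.77%), near the 117 of 5262 of other families (2.22%).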

How the data were processed

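Each library has 1 table, in which the authors deposited a count and a fraction for each nucleotide CDR3. Per the labels' protocols, libraries were made by 5'RACE with 9-nt molecular identifiers. Caller, aligner and build: not given in the sources used here. The deposited fraction is relative to a total of which the tables held 94.2% to 99.2%, so shares were recomputed from the counts. The deposited CDR3 lengths and alignment positions were used as given. The 4 alpha chain entries (6 counts) were left out.

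TRBV31 clonotypes and the lists were chosen with earlier results of these data known. Clonotypes per V family, 23 in all, were tested with edgeR 4.0.16 (quasi-likelihood, clonotype number as library size, filterByExpr minimum count 10), with DESeq2 1.42.0 as an alternative. Single values were compared by two-sided exact permutation or sign-flip tests over libraries (SciPy 1.17.1 and Python 3.11.15), with Benjamini-Hochberg adjustment over 41 tests and a threshold of 0.05. J cluster, D name and length used libraries with at least 10 TRBV31 clonotypes, which left no WT TET library. The exact tests and the edgeR fit of TET against CD8 were tried on simulated data, and the other procedures were not. J classes, size classes, junction parts, family ranks and the fits within strains were added after the data were seen.

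Named receptors were the largest TRBV31 clonotype of each TET library, those in at least 3 TET libraries and the 5 in most CD8 libraries. Not all of those 5 are printed above. Named families were TRBV1, TRBV13, TRBV20 and the 3 closest in rank correlation. The design text counts the same 4 mice per strain for both fractions, on which the pairing rests. As a check, the deviations of family shares in a mouse's TET and CD8 libraries had r of -0.258 to 0.597 over 17 families, and the own CD8 library was highest in 3 of 7. Where TET 2 of WT and TET 4 of mutant mice are left out together, this was chosen after seeing the data.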

Additional observations from a re-analysis of the deposited data

Results flagged for a closer look

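In groups of 4 libraries, 6 of the 30 sets of TRBV31 values examined had a library far from the other 3. Chance flags about 1 set in 20 where values are independent and untied. The 30 sets are related measures of the same libraries, so whether 6 exceeds chance was not tested. The TRBV31 share of counts was 1.57% in WT CD8 1 and 0.911% to 0.982% in the other WT CD8 libraries. A single clonotype with 90 counts lies in WT CD8 1. The excess of single-count clonotypes over other families was 30.2 points in mutant CD8 4 and 12.5 to 15.1 points in the other mutant CD8 libraries. The log2 ratio of mean counts, TRBV31 over others, was -6.90 in mutant TET 4, the deepest library, while its 3 fellow libraries ranged from -1.75 to -1.49. The same ratio was -0.463 in mutant CD8 3 and -0.993 to -0.946 in the others of its group. The log2 ratio of median counts was -0.585 in mutant CD8 2 and -1 in the other 3, where medians take few values. No D was named in 13.3% of the 15 TRBV31 clonotypes of mutant TET 4, while mutant TET 1, 2 and 3 had 28.7% to 30.4%.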

How the results depend on the processing

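Of 623 alternative values for 47 results, 571 kept their direction and side of the threshold. Clonotype share by edgeR ranged over left-out libraries from 1.71 to 1.83 for TET against CD8, 1.00 to 1.55 for mutant against WT in TET, -0.31 to -0.076 in CD8 and 1.17 to 1.72 for their difference, 1.85 to 1.95 in mutant and 0.18 to 0.74 in WT mice. Weighted by counts, TET against CD8 was -0.14 in all, 0.84 in mutant and -1.41 in WT mice. The exact difference in clonotype share was 2.21 points without single-count clonotypes and 5.0 without TRBV13, both passing, and 1.90 to 2.38 with libraries left out. The count share difference was 3.78 without TRBV13, 0.044 without single counts, 0.040 with the replicate block, and -0.171 to 0.209 with libraries left out.

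With the mouse as replicate block, edgeR gave 1.77 for TET against CD8, 1.87 in mutant and 0.30 in WT mice. The mean count ratio of TET against CD8 was -2.02 and did not pass, which no exact test on 7 pairs could do here. The block ended no other call. Between strains no mouse is shared and the numbers pair nothing. A block on those numbers gave 1.36 in TET and -0.17 in CD8.

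Without TRBV13 in the comparison the log2 mean ratio of TET against CD8 was -0.35, and the log2 median ratio was 0.044 in TET, 0.53 for TET against CD8 and -0.022 for the strains in TET. Without the largest clonotypes the single-count excess in TET was 3.39 points and the strain difference in mean ratio in TET 1.06. Left-out libraries gave -2.37 to -1.36 for the mean ratio of TET against CD8. It did not pass without any 1 CD8 library, and without a WT CD8 library no attainable p could pass. The strain difference of that ratio in TET was -1.27 to 0.92 with libraries left out. The single-count excess was then -22.7 to -17.1 for TET against CD8 and -6.70 to 3.84 in TET.

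For TRBJ1, mutant against WT in CD8 was 2.50 points without single counts, 4.58 weighted by counts and -5.66 to 1.70 with libraries left out, and TRBV31 minus others in TET -1.63 to 2.37. The share without a D name was 3.53 (TRBV31 minus others in TET) and 6.02 (TET against CD8) points without single counts, and -6.03 to 0.31 and -5.43 to 0.24 with libraries left out. CDR3 length minus others in TET was -0.094 residues without single counts, -0.077 without TRBV13, -0.059 in TRBJ2, -0.21 in TRBJ1 and -0.12 to 0.10 with libraries left out. Length of mutant against WT in CD8 was -0.018 without single counts and -0.041 weighted by counts. For other changes than these exclusions themselves the cause was not tested.

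In edgeR, mutant against WT in TET was not run at equal depth, without single counts or without mutant TET 1, 2 or 3, since TRBV31 then missed the filter. The 1 to 3 clonotypes of each WT TET library limit every WT TET value.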
